A study of Homo sapiens with 6 samples.

Results

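The PDGF ligands and receptors are 6 genes, the ligand genes PDGFA, PDGFB, PDGFC and PDGFD and the receptor genes PDGFRA and PDGFRB. They were taken by gene symbol from a table of 23002 genes, which held all 6, and 5 of them had a mean level high enough to be tested. The RNA came from U251, a human glioblastoma cell line in long use, with 3 samples carrying a control short hairpin RNA (sh-NC, labelled NC) and 3 samples carrying a short hairpin RNA against TRAF2 (sh-TRAF2, labelled KD). TRAF2 is an adaptor and ubiquitin ligase that carries signals from TNF receptors, and the comparison asks what its loss changes. Both groups were stable lines made with lentivirus and kept by puromycin selection, and neither label names an added cytokine. The vector listed for the TRAF2 hairpins drives the hairpin from a U6 promoter and also carries EGFP. Whether the lines were pools or single clones, and whether the replicates came from separate transductions, is not given in the sources used here, so p-values measure the spread between these samples.

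Platelet-derived growth factors are secreted as dimers that bring receptor chains together at the cell surface, where the receptors' kinase domains phosphorylate each other and recruit signalling proteins. PDGF-A and PDGF-B are cut by furin-type proteases inside the cell, whereas PDGF-C and PDGF-D leave the cell with a CUB domain that must be cut off outside before they can bind. PDGFRα binds the A, B and C chains and PDGFRβ binds the B and D chains. In the brain, PDGFRA marks oligodendrocyte precursors and is amplified in some glioblastomas, and PDGFRB marks pericytes and fibroblasts.

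Levels were given as FPKM, fragments per kilobase of transcript scaled to sequencing depth, which allows genes to be compared with each other. The reads behind the FPKM values came to between 33744897 and 36612059 per sample. TRAF2 was read first because it checks the labels. Its FPKM was 15.1, 18.4 and 15.3 in the sh-NC samples and 3.26, 3.22 and 3.33 in the sh-TRAF2 samples, so the groups did not overlap and the mean fell by 79.9%. The TRAF2 difference was -2.27 on the log2 scale (standard error 0.079, adjusted p = 1.16e-06 from limma).

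The target sites of the hairpins listed for TRAF2 are shown because a knockdown can also touch transcripts that resemble its target. Which of the pair was sequenced is not named in the sources used here. Capitals mark bases 10 to 16, counted from 1 at the 5′ end, a run of 7 bases picked out in earlier work on these data.
sh-TRAF2#1: cccttgcagATTCCACgccat
sh-TRAF2#2: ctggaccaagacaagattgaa
The sites lie in coding sequence on chromosome 9 (GRCh38, GENCODE release 29, plus strand), the former at chr9:136916579-136916599 in exon 7 of 11 and the latter at chr9:136920480-136920500 in exon 8. The longest run of sh-TRAF2#1 target bases in any annotated transcript of a PDGF gene was 8, in PDGFC and PDGFRB, and that of sh-TRAF2#2 was 9, in PDGFRB. The 7 bases in capitals occurred once in a 3′UTR of the PDGF genes, that of PDGFC, as accatgtacgtATTCCACtagctgggttc (chr4:156762779-156762807, minus strand). They occur in the 3′UTR of 10.5% of the tested genes that have one. No such run of 7 bases was searched for sh-TRAF2#2. As the run was picked from these same data, its place in PDGFC is a description only. Whether a hairpin acts on PDGF transcripts was not tested.

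In the control cells the ligands ran from a high PDGFC to a low PDGFD, and both receptors lay below every ligand. Mean FPKM in sh-NC was 30.2 for PDGFC, 9.92 for PDGFA, 3.49 for PDGFB, 1.17 for PDGFD, 0.601 for PDGFRA and 0.121 for PDGFRB. No neighbours in that order overlapped in any sample. Ranks were taken among the 23002 genes, each above 0 in at least 1 sample. PDGFC stood at or above 90.1% to 91.3% of them in the 6 samples, PDGFRA at or above 49.6% to 51.9% and PDGFRB at or above 34.5% to 42.1%. In GRCh38 the genes lie at chr7:497258-520296 (PDGFA), chr22:39223359-39244751 (PDGFB), chr4:156760454-156971394 (PDGFC), chr11:103907186-104164379 (PDGFD), chr4:54229097-54298247 (PDGFRA) and chr5:150113837-150155872 (PDGFRB), with PDGFRA on the plus strand and the others on the minus strand. The summed FPKM of the ligands was 62.1 ± 3.39 times that of the receptors in sh-NC (SD, n = 3).

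The test was limma on log2(FPKM + 0.1), a scale that understates the change of low genes. It took in the 11870 genes whose FPKM averaged 0.5 or more. A gene was called at an adjusted p under 0.05. Of the 5 PDGF genes tested, 3 were called, PDGFA and PDGFB higher and PDGFD lower in sh-TRAF2, against 44.6% of all tested genes called (23.7% higher and 20.9% lower). PDGFD also passed the 2-fold threshold that the study used, which 1.72% of tested genes did (0.986% higher and 0.733% lower). In 4 of the 5 genes no sh-NC value overlapped the sh-TRAF2 values, against 55.5% of tested genes. With only 5 genes tested, 1 gene moves a share widely, so nothing is read from these shares.

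**Figure D1:**
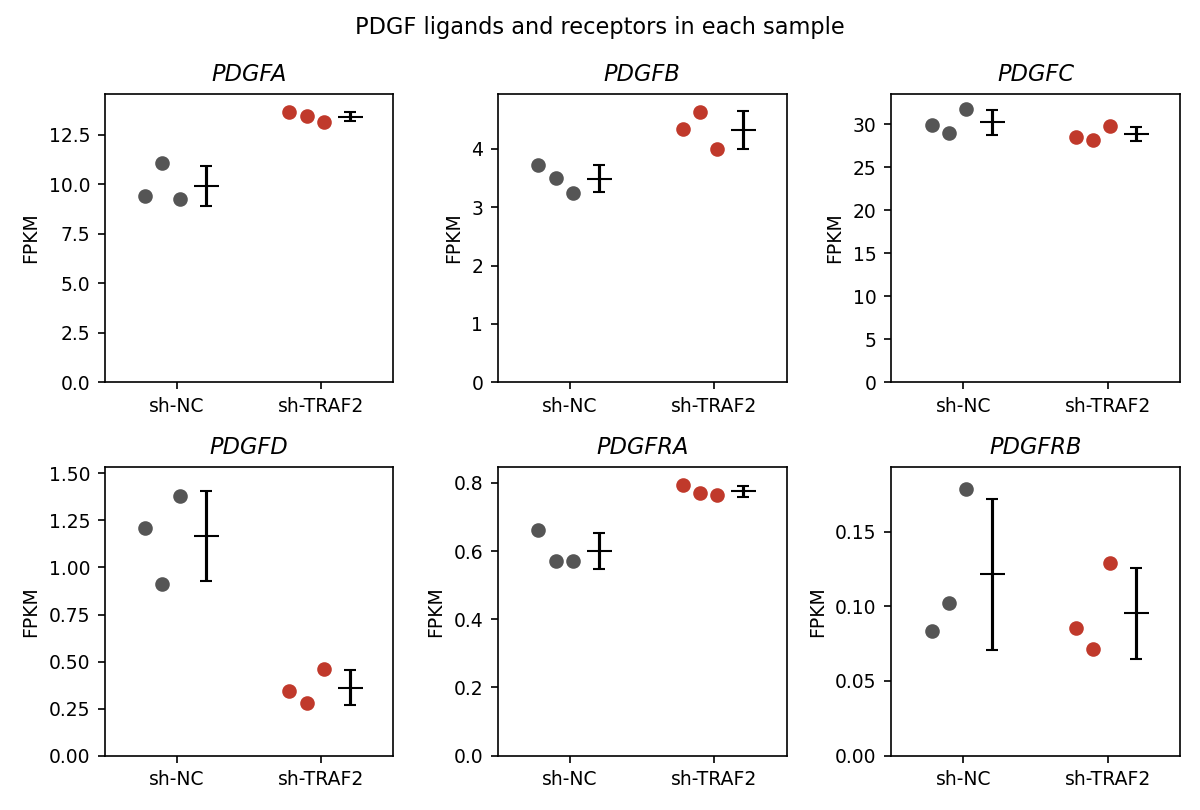
FPKM of each PDGF ligand and receptor gene (vertical axis, from 0, own scale per gene) in the sh-NC (grey) and sh-TRAF2 (red) samples, each point a sample, with the mean and SD of 3 samples beside them. PDGFD lies between 0.910 and 1.38 in sh-NC and between 0.281 and 0.460 in sh-TRAF2, PDGFA, PDGFB and PDGFRA lie higher in every sh-TRAF2 sample, and PDGFC and PDGFRB overlap.

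PDGFD, a latent ligand for PDGFRβ, changed most. Its FPKM was 1.21, 0.910 and 1.38 in the sh-NC samples and 0.344, 0.281 and 0.460 in the sh-TRAF2 samples. The groups were far apart, with the highest sh-TRAF2 sample under the lowest sh-NC sample, and the mean fell by 69.0%, from 1.17 ± 0.238 to 0.362 ± 0.0910 (SD, n = 3). The log2 difference was -1.46 (standard error 0.21, 95% confidence interval -1.95 to -0.97, adjusted p = 0.000942 from limma). In reads the values were 165, 125 and 197 against 46, 37 and 62. PDGFD passed the filter on low values only through its sh-NC level. Without that filter, where 19.2% of 23002 genes were called, its adjusted p was 0.00614 (limma, range over 14 alternatives 0.000174 to 0.00614). A stricter filter at 1 FPKM left PDGFD untested. A larger pseudocount of 1 brought the log2 difference to -0.67, under the 2-fold threshold, while a test of the recovered reads (limma-voom) gave -1.69. In these bulk samples, fewer cells that express a gene and less RNA per cell cannot be told apart.

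PDGFA, whose chain forms the classical ligand of PDGFRα, was higher in sh-TRAF2. Its FPKM was 9.41, 11.1 and 9.24 in sh-NC and 13.6, 13.5 and 13.2 in sh-TRAF2. The sh-TRAF2 samples were close together and all lay above the highest sh-NC sample, replicate 2. The mean rose from 9.92 ± 1.03 to 13.4 ± 0.240 (SD, n = 3), a rise of 35.3%. On the log2 scale it was 0.44 higher (standard error 0.072, 95% confidence interval 0.27 to 0.60, adjusted p = 0.00164 from limma). The rise was called under each of the 15 alternatives, at adjusted p values of 0.000224 to 0.00801, and leaving out single samples gave 0.39 to 0.52. Its neighbour PRKAR1B, a regulatory subunit of protein kinase A, was at 3.51 ± 0.322 and 3.72 ± 0.289 FPKM (adjusted p = 0.488 from limma), and PDGFA-DT, a transcript that overlaps the PDGFA locus, was covered by 20 reads over the sh-NC samples against 27 over the others. The use of strand in counting is not known, so reads of overlapping genes may not be told apart.

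PDGFB, whose chain binds both receptors and is the cellular counterpart of the viral oncogene v-sis, was higher by less. Its FPKM was 3.72, 3.49 and 3.25 in sh-NC and 4.34, 4.64 and 3.99 in sh-TRAF2, so the groups did not overlap. The mean went from 3.49 ± 0.234 to 4.32 ± 0.322 (SD, n = 3), and the log2 difference was 0.30 (standard error 0.081, 95% confidence interval 0.12 to 0.49, adjusted p = 0.0166 from limma). The call was lost without sh-NC replicate 3 (0.25, adjusted p = 0.0546) and without sh-TRAF2 replicate 2 (0.25, adjusted p = 0.0599), and the adjusted p ran from 0.0132 to 0.0599 over 15 alternatives. Its neighbour RPL3, a ribosomal protein gene, was also higher, by 0.15 on the log2 scale (adjusted p = 0.00542 from limma), and CBX7 on the other side was not called (adjusted p = 0.538).

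PDGFC, the most abundant ligand transcript here and a latent ligand of PDGFRα, did not differ detectably. Its FPKM was 29.9, 28.9 and 31.8 in sh-NC and 28.5, 28.2 and 29.7 in sh-TRAF2, and the groups overlapped. The log2 difference was -0.07, with a 95% confidence interval of -0.17 to 0.04 (adjusted p = 0.273 from limma). This gene had 4880 to 5956 reads per sample, the most of the 6, and the narrowest interval of the PDGF genes tested.

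**Figure D2:**
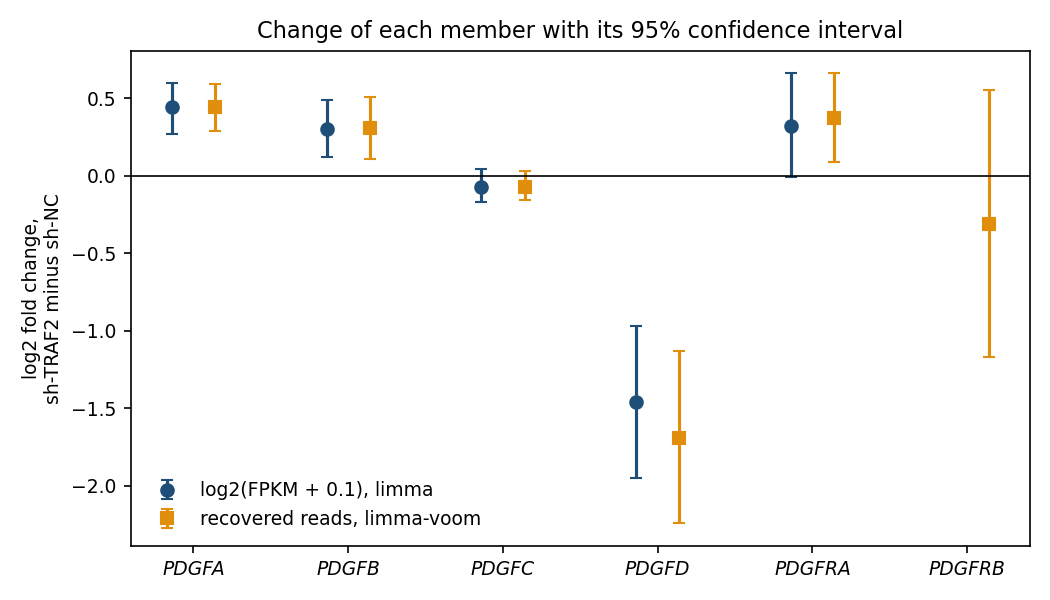
Log2 fold change of each PDGF gene, sh-TRAF2 minus sh-NC (vertical axis), with 95% confidence intervals, from limma on log2(FPKM + 0.1) (circles) and from limma-voom on recovered reads (squares). PDGFD lies near -1.46 and -1.69, PDGFA and PDGFB lie above 0, PDGFC lies at -0.07 in both, and PDGFRB, too low for the former test, has an interval from -1.17 to 0.55.

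The promoters of PDGFA and PDGFD are shown because these genes moved in opposite directions, and were searched for the letters of early response factors. Each run holds 250 bases before and 50 after a transcription start, from RefSeq (GRCh38.p14). Capitals mark matches to the EGR letters GCGGGGGCG or GCGTGGGCG (EGR1 and its relatives) and to a CArG box (serum response factor), searched on both strands.
PDGFA promoter: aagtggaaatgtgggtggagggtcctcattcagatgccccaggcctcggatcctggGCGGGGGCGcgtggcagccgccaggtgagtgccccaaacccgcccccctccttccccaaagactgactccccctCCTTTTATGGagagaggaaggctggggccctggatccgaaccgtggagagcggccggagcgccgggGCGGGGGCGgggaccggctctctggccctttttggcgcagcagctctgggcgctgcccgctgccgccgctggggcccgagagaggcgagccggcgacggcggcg
PDGFD promoter: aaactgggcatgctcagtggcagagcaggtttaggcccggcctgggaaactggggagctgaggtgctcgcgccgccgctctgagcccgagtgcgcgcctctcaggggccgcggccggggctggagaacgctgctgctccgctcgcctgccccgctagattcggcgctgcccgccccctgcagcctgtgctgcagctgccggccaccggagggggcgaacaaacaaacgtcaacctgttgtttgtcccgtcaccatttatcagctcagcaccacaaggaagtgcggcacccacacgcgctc
The PDGFA run lies at chr7:520177-520476 (minus strand) and holds 2 EGR matches, starting 194 and 54 bases before the start, and 1 CArG box 120 bases before it. The PDGFD run lies at chr11:104164098-104164397 (minus strand) and holds neither set of letters. Of 35116 promoter runs of this length, 5.77% hold the EGR letters and 1.29% a CArG box. PDGFA has 4 such runs in RefSeq, of which 2 hold the EGR letters and only the printed one a CArG box. GC content was 71.7% in the PDGFA run and 67.3% in the PDGFD run against a median of 58.7% in all runs. The Sp1 letters GGGCGG, which can overlap the EGR letters, were found in 4 places of the PDGFA run and 1 of the PDGFD run, and 45.0% of all runs hold them. The runs of PDGFRA and PDGFRB held no EGR letters. The AP-1 letters (TGACTCA or TGAGTCA) were found in no run of PDGFA, PDGFD, PDGFRA or PDGFRB, and 4.95% of all runs hold them. A match of letters is a description and not a binding site.

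PDGFRA, the receptor for the A, B and C chains, was low in these cells. Its FPKM was 0.661, 0.572 and 0.570 in sh-NC and 0.794, 0.769 and 0.763 in sh-TRAF2, from 165 to 223 reads per sample. The lowest sh-TRAF2 sample was above the highest sh-NC sample. The log2 difference of 0.32 (standard error 0.15, 95% confidence interval -0.01 to 0.66) did not pass limma (adjusted p = 0.106). It passed with limma-voom on the recovered reads (0.37, adjusted p = 0.037, against 40.8% of 14129 genes called there) and when the spread was not modelled as a trend of the level (0.32, adjusted p = 0.0095), and its adjusted p ran from 0.0095 to 0.213 over 14 alternatives. KIT, the neighbouring gene for a related receptor, had 44 reads over the sh-NC samples and 12 over the sh-TRAF2 samples and was too low to be tested.

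PDGFRB, the receptor for the B and D chains, was close to the detection limit. It had 17, 21 and 38 reads in sh-NC and 17, 14 and 26 in sh-TRAF2, or 0.0833, 0.102 and 0.178 FPKM against 0.0852, 0.0712 and 0.129. The groups overlapped (exact permutation test, two-sided p = 0.6), and a mean of 0.121 ± 0.0503 against 0.0952 ± 0.0303 (SD, n = 3) kept the gene below the filter. With limma-voom on the reads the log2 difference was -0.31, with a 95% confidence interval of -1.17 to 0.55 (adjusted p = 0.563), an interval that a fall of 2-fold lies within.

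The balance of the PDGF transcripts within a sample does not depend on the scaling between samples. PDGFA and PDGFB together made up 29.7%, 32.8% and 27.4% of the summed ligand FPKM in sh-NC and 38.4%, 38.9% and 36.2% in sh-TRAF2. The groups did not overlap, and the difference of 7.87 percentage points had the smallest p the design allows (exact permutation test, two-sided p = 0.1, n = 3 per group). PDGFC went from 67.4% to 61.4% of the sum and PDGFD from 2.60% to 0.770%. A share also falls when other ligands rise, and PDGFC itself was not called (log2 difference -0.07, adjusted p = 0.273 from limma). The sum itself was 44.8 ± 0.751 in sh-NC and 46.9 ± 0.396 in sh-TRAF2 (SD, n = 3). PDGFRA made up 88.8%, 84.8% and 76.2% of the receptor FPKM in sh-NC and 90.3%, 91.5% and 85.5% in sh-TRAF2, which overlapped (exact permutation test, two-sided p = 0.2).

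The order of PDGFD and PDGFRA changed, a comparison chosen after their values were seen. PDGFD FPKM was 1.83, 1.59 and 2.42 times that of PDGFRA in the sh-NC samples and 0.434, 0.365 and 0.603 times in the sh-TRAF2 samples. In FPKM, PDGFD was thus above PDGFRA in 3 of 3 sh-NC samples and below it in 3 of 3 sh-TRAF2 samples. The other neighbours kept their order, and none overlapped in sh-TRAF2 either. The order in sh-NC rests on the gene lengths behind FPKM, 3900 bases for PDGFD and 8197 for PDGFRA as implied by the values. In sh-NC reads, PDGFD had 165, 125 and 197 against 190, 165 and 171 for PDGFRA. In sh-TRAF2 reads it had 46, 37 and 62 against 223, 213 and 216.

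**Figure D3:**
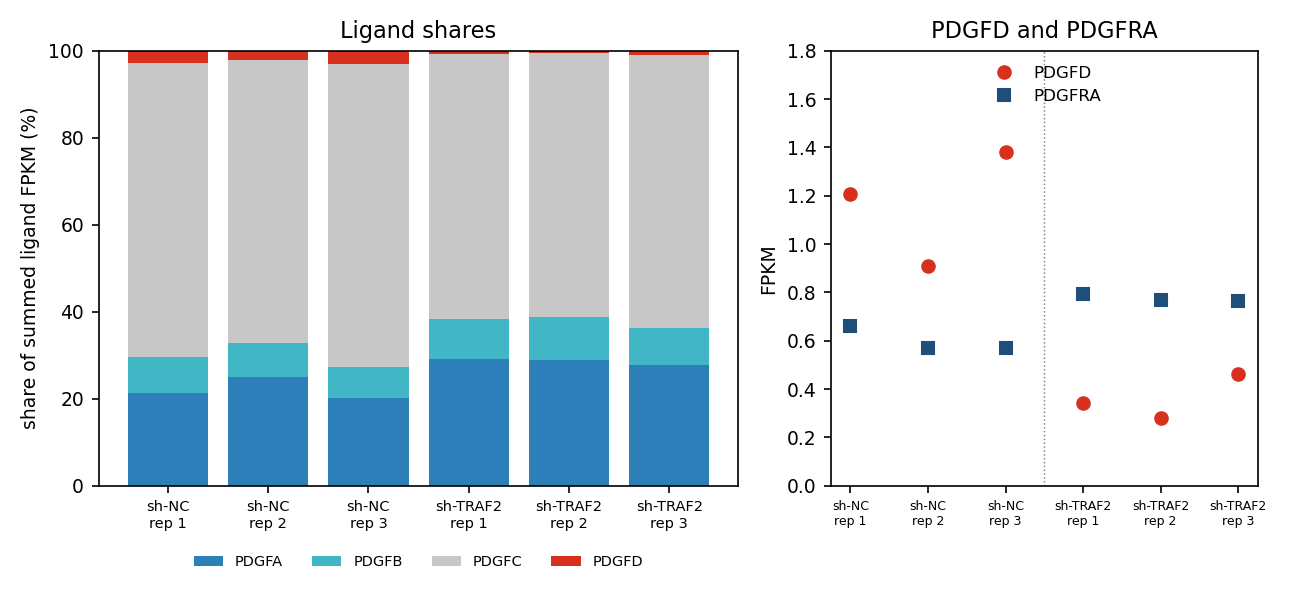
Left, share of each ligand gene in the summed ligand FPKM (percent) in each sample. Right, FPKM of PDGFD (circles) and PDGFRA (squares) in each sample, with a dotted line between the groups. PDGFA and PDGFB together take 27.4% to 32.8% in sh-NC and 36.2% to 38.9% in sh-TRAF2, and the circles lie above the squares in sh-NC and below them in sh-TRAF2.

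Genes that mature or capture the ligands were called in 6 of 9 tested cases of the 14 listed, 2 higher and 4 lower in sh-TRAF2 (66.7% called, against 44.6% of all tested genes), with a median log2 difference of -0.24 against 0.02 over all tested genes. PLAU, the urokinase that can release active PDGF-D, fell from 508 to 325 FPKM (log2 difference -0.65, adjusted p = 4.12e-05 from limma). PLAT, the tissue plasminogen activator that can release active PDGF-C, rose from 6.91 to 7.88 (0.19, adjusted p = 0.0273), a call lost in 4 of the 6 fits without 1 sample (adjusted p 0.0243 to 0.0998 over 15 alternatives). THBS1, a matrix protein that can bind PDGF, rose from 55.1 to 92.7 (0.75, adjusted p = 1.02e-05). The co-receptors NRP1 and NRP2, known best for VEGF and semaphorin binding, fell from 184 to 151 and from 64.6 to 49.3. FURIN, which cuts the A and B chains, was at 36.2 and 38.6 FPKM (adjusted p = 0.254), and ST14, a protease that can cut PDGF-D, was below the filter.

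Adaptors and first effectors of the receptors moved both ways, with 6 higher and 8 lower of 24 tested from 26 listed (58.3% called against 44.6% of all tested genes, median log2 difference -0.03). PIK3CA, a catalytic subunit of PI3-kinase, fell from 6.52 to 4.35 FPKM (log2 difference -0.58, adjusted p = 0.000191 from limma). The adaptor SHC1 fell from 52.6 to 45.6 and the Src-family kinase FYN from 28.1 to 24.7. STAT5A rose from 6.84 to 8.72 (0.34, adjusted p = 0.00295), STAT3 from 30.4 to 36.6 and the phosphatase PTPN11, which promotes Ras activation, from 40.8 to 47.7.

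Among the 18 genes that attenuate receptor signalling, all tested, 5 were higher and 4 lower (9 of 18 against 44.6% of all tested genes, median log2 difference 0.05). The split was 3 higher and 5 lower after rescaling to a common total and 4 higher and 5 lower after quantile normalization, and 5 genes were called in all without sh-TRAF2 replicate 3. The Sprouty feedback inhibitors were the higher ones with the smallest adjusted p. SPRY1 rose from 1.55 to 2.40 FPKM (0.61, adjusted p = 0.00250 from limma), SPRY2 from 10.2 to 14.9 (0.55, adjusted p = 0.00148) and SPRY4 from 19.1 to 23.1 (0.27, adjusted p = 0.00691). RASA1, a Ras GTPase-activating protein that docks on PDGFRβ, fell from 25.6 to 19.97 and PTPRJ, a phosphatase that acts on PDGF receptors, from 10.8 to 8.43.

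Textbook response genes, induced by PDGF, serum and many other stimuli, gave 10 higher and 3 lower calls of 20 tested (65.0% called against 44.6% of all tested genes, and 23.7% higher and 20.9% lower there, median log2 difference 0.19), and 10 higher and 5 lower after quantile normalization. FOS, an AP-1 subunit, rose from 0.293 ± 0.0474 to 1.36 ± 0.264 FPKM (SD, n = 3), a log2 difference of 1.89 (adjusted p = 0.000138 from limma). It passed the filter on low values only through its sh-TRAF2 level, and with a pseudocount of 1 the difference was 0.87, under 2-fold. EGR1 rose from 7.83 ± 1.92 to 16.7 ± 1.04 (1.11, adjusted p = 0.000685), JUN from 170.1 to 226 and IER2 from 60.0 to 85.1. CCL2, a chemokine that is also an NF-κB target, fell from 131 to 56.6 (-1.22, adjusted p = 1.86e-05). MYC fell from 87.6 to 79.3 (-0.14, adjusted p = 0.0134).

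**Figure D4:**
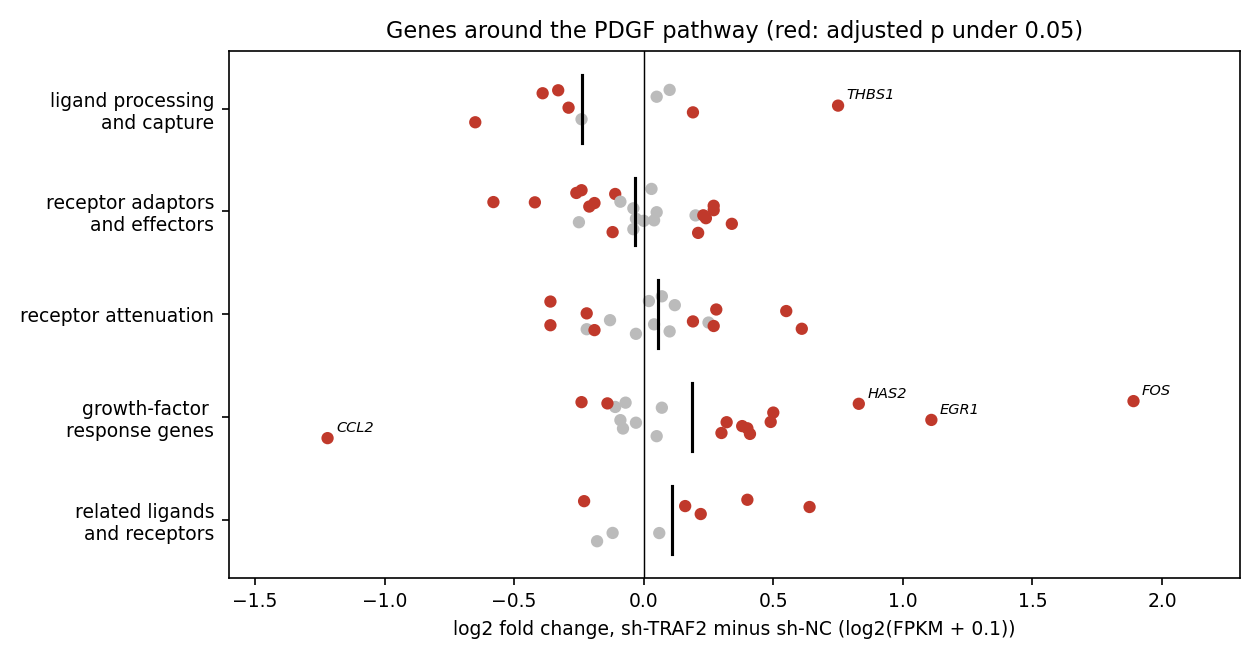
Log2 difference of each tested gene, sh-TRAF2 minus sh-NC (horizontal axis), in the 5 lists around the PDGF pathway, red where the adjusted p was under 0.05, with a vertical bar at each list's median. The medians run from -0.24 for ligand processing and capture to 0.19 for the response genes, in which FOS, EGR1 and CCL2 lie beyond 2-fold (FOS not with a pseudocount of 1).

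The related VEGF, KIT and CSF1 receptor families gave 4 higher and 1 lower calls of 8 tested (KIT, CSF1R, FLT1, FLT3 and FLT4 were below the filter, 62.5% called against 44.6% of all tested genes, median log2 difference 0.11). PGF, a VEGF-family ligand, was at 3.22 and 4.29 FPKM (0.40, adjusted p = 0.0421 from limma), the CSF1 receptor ligands CSF1 at 36.4 and 40.7 (0.16, adjusted p = 0.0151) and IL34 at 0.596 and 0.982 (0.64, adjusted p = 0.0376), and the KIT ligand KITLG at 15.1 and 12.9 (-0.23, adjusted p = 0.0373). Without sh-TRAF2 replicate 2 limma called 0 of the 8, with 3 at an unadjusted p under 0.05, and limma-voom on all samples called 5. Without that sample the log2 differences were 0.28 for PGF, 0.14 for CSF1, 0.63 for IL34 and -0.16 for KITLG.

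Marker genes of the cell types in which the PDGF receptors are best known were also read. Of the astroglial and glioma list, VIM, CD44, SOX2, SOX9 and NES were well expressed, GFAP was at 0.467 ± 0.176 FPKM in sh-NC and S100B at 0 in every sh-NC sample. The summed FPKM of that list was 1490 to 1563 in sh-NC and 1825 to 1869 in sh-TRAF2. Most of it was VIM, at 1242 and 1582 FPKM. Of 7 tested genes, NES, VIM and GFAP were higher and EGFR lower, at 31.8 and 14.3 (57.1% called against 44.6% of all tested genes). GFAP overlapped between the groups and passed the filter only through sh-TRAF2. Oligodendrocyte precursor markers summed to between 0.108 and 0.244 FPKM, with none of 6 high enough to test. The pericyte and fibroblast list summed to 60.1 to 62.6 in sh-NC and 47.2 to 57.0 in sh-TRAF2, while COL1A2 fell from 37.3 to 19.9 FPKM. Of 5 tested, ACTA2 and THY1 were higher and COL1A2 lower (60.0% called against 44.6% of all tested genes). LUM was at 0 in every sh-NC sample. With 7 and 5 genes tested, nothing is read from these shares. Endothelial markers summed to between 0.308 and 0.712 and the immune list to between 15.5 and 17.9, nearly all of it CD68, with PTPRC at or below 0.00447. The part of these markers in the PDGF values was not tested.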

How the data were processed

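RNA was sequenced from 6 samples of U251 cells, 3 sh-NC and 3 sh-TRAF2, grouped by their titles. OE Biotech prepared the libraries (VAHTS Universal V6 kit) and processed the reads. The authors deposited 1 table of FPKM values, and the submitters' processing notes name HISAT2, HTSeq, R 3.2.0 and DESeq2. The build, annotation and use of strand in counting are not given in the sources used here, so coordinates are those of GENCODE 29 (GRCh38).

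FPKM values of a gene were whole multiples of 1 step for all but 1 gene, and reads were recovered as the smallest whole numbers whose steps match, which was tested on simulated data. For the 2643 genes with reads in a single sample the count was set to the lowest. No pair of replicates agreed within sampling noise (chi-square per gene 5.19 to 12.9). Values were tested as log2(FPKM + 0.1) for genes averaging 0.5 FPKM or more using limma 3.58.1 (lmFit, eBayes with a trend, two-sided) in R 4.3.3, with Benjamini-Hochberg adjustment over 11870 genes. The fit was tested on simulated data. Exact permutation tests had 20 possible assignments, so their smallest p is 0.1.

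The members and gene lists were chosen with earlier results of these data known. Named are the PDGF genes and TRAF2 and, from each of 5 lists (ligand processing and capture, adaptors and effectors, attenuation, response genes, related ligands and receptors), genes past 2-fold plus the 3 with the smallest adjusted p in each direction. Also named are the 2 genes most like each tested PDGF gene. Named too is the nearest gene on each side among the 23002 genes, so nearer genes outside them are passed over. Of the genes this rule selects, 2 are not reported here. Other genes were named after their values were seen. Alternatives were pseudocounts of 1 and 0.01, no filter, a filter at 1 FPKM, values rescaled to a common total, quantile normalization, eBayes without a trend, a replicate block, limma-voom on recovered reads (mean of at least 10) and each sample left out. The filter at 1 FPKM left PDGFD and PDGFRA untested. VEGFD, AQP4, ALDH1L1 and CHI3L1 were not analysed here. Promoter runs of PDGFB and PDGFC were not used here.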

Additional observations from a re-analysis of the deposited data

How the results depend on the processing

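Of 88 recomputed differences of TRAF2 and the 5 tested PDGF genes, 84 kept their call or lack of one and none changed sign. PDGFRB, not called, ran from -0.29 to 0.01 without single samples (0.01 without sh-NC replicate 3). Of all calls, 2818 were higher and 2479 lower, against 2541 and 2725 after quantile normalization. Genes past 2-fold numbered 204, but 414 with limma-voom on recovered reads and 87 with a pseudocount of 1. PDGFB ran from 0.25 to 0.36 on the log2 scale when single samples were left out and lost its call in 2 of those fits. PDGFRA gained a call without a trend (0.32) and with limma-voom (0.37). The attenuation list had 9 calls, 5 without the filter on low values and 5 to 9 without single samples. The related ligands and receptors had 5 calls, 3 without a trend, 2 without the filter, 3 with the replicate block and 0 to 4 without single samples. The cause of these shifts was not tested. With the replicate number as a block, 5451 genes were called against 5297, and PDGFD was at -1.46. Deviations of same-numbered samples correlated at -0.08, 0.07 and 0.07, which gives no sign that the numbers pair the samples. The labels do not say whether they do. The block changed no call of a PDGF gene. Of 418 recomputed values for named genes of the lists, 33 lost their call, among them values of PLAT, PGF, KITLG, CSF1 and IL34. The log2 ratio of PDGFD to PDGFRA differed by -2.27 to -1.90 without single samples, an alternative chosen after seeing the data. Read numbers were lowest for PDGFRB, with 14 to 38 reads per sample, and PDGFD, with 37 to 62 in sh-TRAF2.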

Other observations

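PDGFRL, a gene named for its likeness to the PDGF receptors and not one of them, was chosen after its values were seen. Its FPKM was 1.77, 1.78 and 1.601 in sh-NC and 2.79, 3.42 and 3.72 in sh-TRAF2, so the groups did not overlap. The log2 difference was 0.90 (standard error 0.11, adjusted p = 0.000444 from limma).

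For each tested PDGF gene, the tested genes with the most similar log2 values over the 6 samples were taken. They were DEPDC7 and EIF3D for PDGFA (Pearson r 0.9992 and 0.9989) and PLA2G12A and NSFL1C for PDGFB (0.9968 and 0.9945). For PDGFC they were SNX9 and ATP9A (0.9878 and 0.9873), and for PDGFD they were PSIP1 and GFPT1 (0.9975 and 0.9973). For PDGFRA they were GNA12 and FOXJ3 (0.9985 and 0.9965). The 6 samples fall into their groups, which these values share. Correlations of at least 0.95 were common for PDGFD (6.47% of 11869 genes compared) and PDGFA (5.42%) and less so for PDGFRA (2.82%), PDGFB (1.17%) and PDGFC (0.261%).

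Of the other neighbours on the chromosomes, GLRB beside PDGFC was at 5.03 ± 0.603 and 4.84 ± 0.491 FPKM (SD, n = 3), with an adjusted p of 0.695 from limma. LOC105377508, on the other side of PDGFC, was covered by 2 reads over the sh-NC samples against 10 over the others. GSX2 beside PDGFRA had 22 and 30 reads, and CSF1R and SLC6A7 beside PDGFRB had 32 and 19 and 6 and 11. LOC105369464 and LINC02552 beside PDGFD had at most 1 read in a group, and LOC116435278 beside PDGFA had 3 and 1.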
